A study of Mus musculus with 12 samples.

Results

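The 46 genes described here copy DNA or prepare a cell for doing so. They load, activate and drive the replicative helicase, synthesize and join the new strands, supply nucleotides and histones, and set the entry into S phase. They were taken by gene symbol from a list of replication and S phase genes, by a rule that uses no difference between groups. All 46 were among the 27755 rows of the authors' table of normalized counts, and all 46 had a mean of at least 10 over the libraries, as did 18400 genes in all.

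The table held 11 libraries of cochlear sensory epithelium, each from both ears of 1 mouse pup of mixed C57BL/6 and CD1 background. Every pup carried the β-catenin-flox(Exon3)/+ allele, in which Cre removes an exon of *Ctnnb1* and leaves a β-catenin protein that resists degradation. Treated pups also carried Sox2-CreER/+, a tamoxifen-dependent Cre made from a knock-in *Sox2* allele, and untreated pups were their littermates without Cre. All pups, untreated ones included, received tamoxifen through the milk of mothers injected at postnatal day 1 (the P1 groups) or day 4 (the P4 groups), and were harvested 72 h later, at day 4 or day 7. Each group had 3 libraries except the P4 treated group, of which replicates 1 and 3 were used and replicate 2 was not analysed here. A comparison of P1 with P4 is therefore one of day 4 with day 7.

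DNA replication starts when the proteins made by *Cdc6* and *Cdt1* load the ring of MCM proteins onto DNA in G1, and when CDC45 and the GINS complex turn that ring into a moving helicase in S phase. Polymerase α with primase starts each strand, polymerases δ and ε extend it on the sliding clamp PCNA, and flap endonuclease and ligase join the pieces. Many of these genes are targets of E2F transcription factors and are switched on together before S phase. In the cochlea, hair cells and supporting cells have left the cell cycle before birth, while other cells of the tissue still divide in the neonate.

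E2F factors bind short promoter motifs, so the promoters of the genes were searched for them. RefSeq (GRCm38.p6) promoters, which run from 250 bases before to 50 bases after a start, were matched by symbol for 36 of the 46 genes, with 41 promoters in all. An E2F motif was taken as TTTCCCGC, TTTCGCGC, TTTGCCGC or TTTGGCGC on either strand. It was found in 14 of the 41 promoters (34.1%) and in 744 of all 32851 promoters (2.26%). A CCAAT box (CCAAT on either strand) was found in 24 of the 41 (58.5%) and in 37.4% of all promoters. The CHR element of genes expressed in G2 and mitosis (TTTGAA on either strand) was found in 12.2% of the 41 and 17.9% of all promoters. A TCF/LEF motif, bound by the partners of β-catenin, was taken as AACAAAG or ATCAAAG, as TACAAAG, or as TTCAAAG, which overlaps the CHR letters, on either strand. It was found in 7.32% of the 41 and 16.9% of all promoters. A match is a run of letters and not a measured site. No matched promoter was given for *Ccne2*, *Dscc1*, *Exo1*, *Gins1*, *Gins2*, *Gins4*, *Mcm4*, *Pole*, *Rfc2* and *Tipin*.

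The 250 bases before the start are shown for 4 genes, 3 with an E2F motif and *Rrm1* with CCAAT boxes alone. They were chosen after the values were seen, as helicase, chromatin and nucleotide genes that carried several of the motifs. Capitals mark E2F motifs and CCAAT boxes (CCAAT, or ATTGG on the opposite strand), and an unbroken run of capitals longer than 8 letters is a pair of overlapping E2F motifs.
Mcm5, chr8:75109259-75109508, plus strand: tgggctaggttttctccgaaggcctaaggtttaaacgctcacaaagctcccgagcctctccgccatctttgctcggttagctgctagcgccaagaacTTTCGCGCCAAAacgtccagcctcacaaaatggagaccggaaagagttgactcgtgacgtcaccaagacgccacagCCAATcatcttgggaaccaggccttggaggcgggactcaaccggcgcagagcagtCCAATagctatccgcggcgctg
Mcm6, chr1:128359706-128359955, minus strand: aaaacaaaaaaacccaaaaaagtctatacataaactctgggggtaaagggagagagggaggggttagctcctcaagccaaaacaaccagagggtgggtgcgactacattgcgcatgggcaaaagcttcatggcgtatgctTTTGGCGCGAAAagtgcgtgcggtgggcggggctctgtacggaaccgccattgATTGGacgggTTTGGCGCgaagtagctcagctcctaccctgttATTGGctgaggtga
Uhrf1, the downstream of the listed starts, chr17:56304063-56304312, plus strand: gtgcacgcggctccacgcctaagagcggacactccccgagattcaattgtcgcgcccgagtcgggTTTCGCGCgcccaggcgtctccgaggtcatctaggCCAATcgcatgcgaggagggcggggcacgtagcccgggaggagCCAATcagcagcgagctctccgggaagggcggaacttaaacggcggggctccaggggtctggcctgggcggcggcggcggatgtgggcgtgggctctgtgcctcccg
Rrm1, chr7:102441445-102441694, plus strand: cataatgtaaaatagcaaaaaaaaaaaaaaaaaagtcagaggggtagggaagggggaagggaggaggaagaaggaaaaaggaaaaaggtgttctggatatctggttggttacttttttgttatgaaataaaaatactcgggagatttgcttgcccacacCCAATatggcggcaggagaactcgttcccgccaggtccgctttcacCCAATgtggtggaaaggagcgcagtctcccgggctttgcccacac
*Mcm5* and *Mcm6* each held an overlapping pair of E2F motifs, and *Mcm6* a further one close to its start.

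Sums over all genes were 41.2 to 44.2 M normalized counts per library. Supporting cell markers were the most abundant list, with a mean log2 level of 12.5 to 13.2 per library, and hair cell markers stood at 10.1 to 10.8 in P1 and 11.1 to 11.5 in P4 libraries. Markers of mesenchyme, which the preparation was meant to remove, stood at 10.7 to 12, and immune markers at 6.56 to 8.35. *Xist*, which marks female tissue, was at 13 to 26 in P1 treated libraries, at 16, 3030 and 2794 in P1 untreated libraries, at 4180 and 3268 in P4 treated libraries and at 32 to 39 in P4 untreated libraries, so sex cannot be told apart from age in treated libraries, nor from treatment at P4. *Sox2* was lower in P1 treated (4930 to 6006) than in P1 untreated libraries (8042 to 10170), with a log2 fold change of -0.67 ± 0.10 SE (adjusted p = 0.03). *Ctnnb1* was at 24107 to 25048 and 19820 to 25308 in the same groups, and a total per gene does not show the loss of an exon.

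Over the 46 genes, the mean log2 level was 8.92, 8.48 and 9.27 in P1 treated replicates 1, 2 and 3. It was 8.48, 8.48 and 8.64 in P1 untreated, 8.35 and 8.19 in P4 treated, and 8.28, 8.22 and 8.25 in P4 untreated libraries. Every P1 library thus stood above every P4 library, and the P1 treated libraries were spread more widely than any other group. P1 treated replicate 3 was the highest of all 11 libraries for 29 of the 46 genes, while P1 treated replicate 2 was the lowest of its group for 33 and the highest for 0. In these bulk samples, fewer cells of a type and less RNA per cell cannot be told apart.

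**Figure D1:**
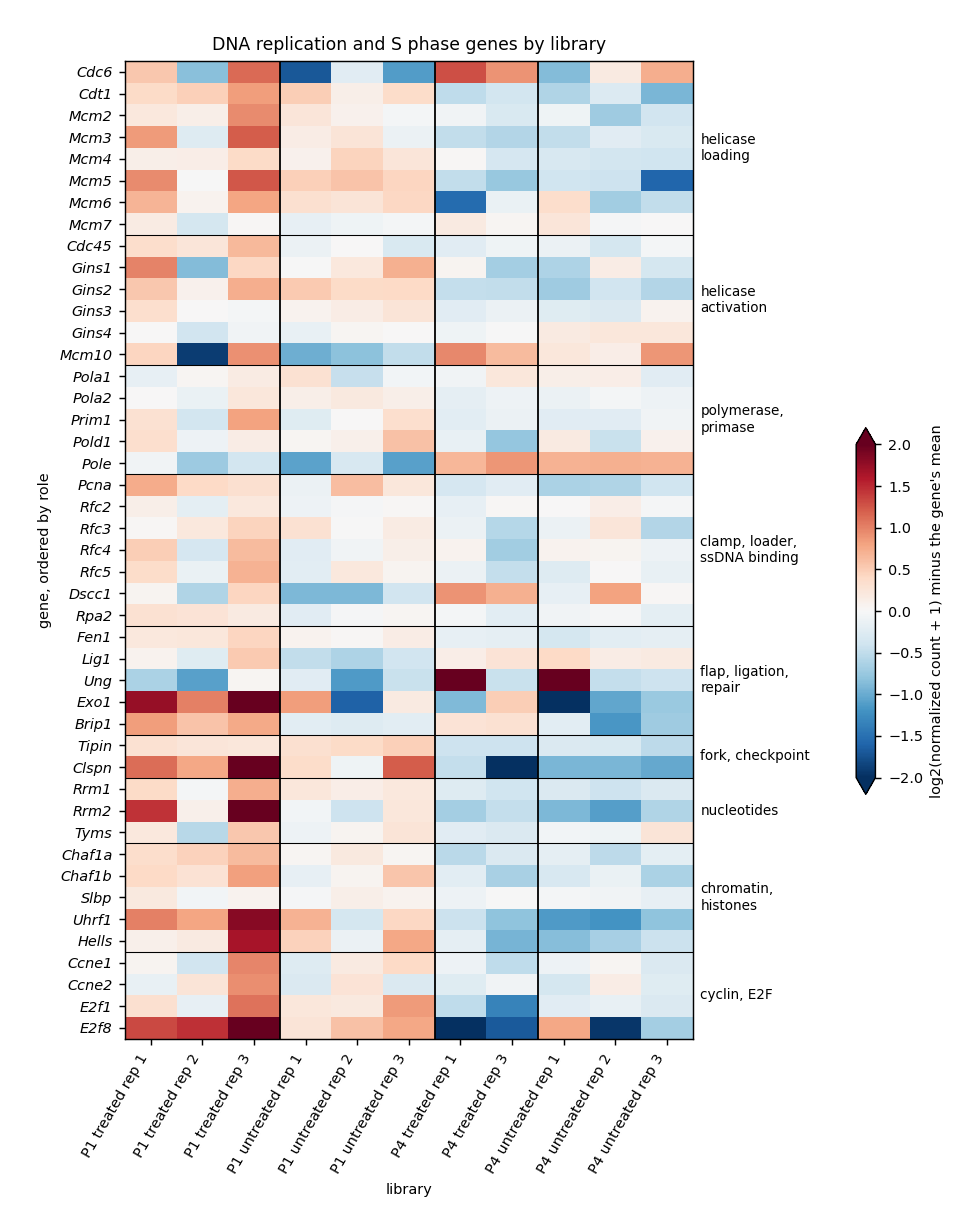
Level of 45 of the 46 genes (rows, ordered by role) in each of the 11 libraries (columns, with black lines between groups), as log2(normalized count + 1) minus the gene's mean over the libraries, with the colours ending at 2 either way. P1 treated replicate 3 is the highest library for 28 of the genes drawn, and Pole, Dscc1 and Lig1 are among the genes that are lower in P1 untreated than in P4 untreated libraries.

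A gene was called when its adjusted p was under 0.05 over all 18400 genes and its log2 fold change over 0.32 either way. Between untreated libraries, 9 of the 46 genes (19.6%) were called higher at P1 than at P4, where 10.5% of all genes were, and 2 (4.35%) were called lower, where 9.38% were. The groups did not overlap for 18 genes that were higher at P1 (39.1%, against 22% of all genes) and 6 that were lower (13%, against 19.3%). Between treated libraries, 12 of the 46 (26.1%) were called higher at P1, against 5.63% of all genes, and 1 (2.17%) was called lower, against 5.42%. Here the groups did not overlap for 26 higher genes (56.5%, against 21.8%) and 2 lower genes (4.35%, against 21.3%). The median log2 fold change of the 46 genes was 0.32 in untreated and 0.57 in treated libraries, and that of all genes 0.02 and 0.005.

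The age comparisons share no library, although the spread in both was estimated from all 11 libraries. They shared 8 called genes, 72.7% of the 11 called in untreated and 61.5% of the 13 called in treated libraries. The same share over all genes was not counted. All 8 had the same direction: *Cdt1*, *Gins2*, *Pcna*, *Fen1*, *Tipin*, *Rrm1* and *Uhrf1* were higher at P1 and *Pole* was lower. With a covariate for the log2 level of *Xist*, the call held between untreated libraries for 4 genes (*Gins2*, *Tipin*, *Uhrf1* and *Pole*) and between treated libraries for 0, where 28 of all genes were called. In that fit the median of the 46 genes was 0.25 in untreated and 0.71 in treated libraries. Among treated libraries *Xist* was low in all P1 and high in all P4 libraries, so the fit cannot tell age from sex there. Its slope rests mainly on P1 untreated libraries, the only group with low and high values of *Xist* (16, 3030 and 2794). With only the treated libraries in the fit, 4 of the 46 genes were called by age, namely *Tipin*, *Uhrf1*, *Pole* and *E2f8*. For that fit, and for the *Xist* fit of untreated libraries, the share of all genes called is not given. Those counts therefore do not compare the 46 genes with all genes. A call in one pair alone does not show a difference between the pairs, and none of the 46 genes passed the test of that difference.

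Markers of other cells moved with age too. Each P1 library had a lower mean level of the 14 hair cell markers (10.1 to 10.8) than each P4 library (11.1 to 11.5). Of these markers 6 (42.9%, against 9.38% of all genes) were called lower and 1 (7.14%, against 10.5%) higher at P1 in untreated libraries. In treated libraries 3 (21.4%, against 5.42%) were called lower and 1 (7.14%, against 5.63%) higher. The outer hair cell genes *Ocm* and *Slc26a5*, for a calcium-binding protein and the motor protein prestin, were lower at P1 in both pairs, and *Atoh1*, a transcription factor of hair cell formation, was higher. The 8 Schwann and glia markers had a mean log2 level of 10.9, 9.67 and 10.9 in P1 treated replicates 1, 2 and 3 and of 9.46 and 8.72 in P4 treated libraries, with a median log2 fold change of 1.18. They overlapped between P1 untreated (9.65 to 10.4) and P4 untreated libraries (9.61 to 10.6), with a median of -0.04. Of the 8, *Egr2* alone (12.5%) was called, higher at P1 in both pairs, against 10.5% and 5.63% of all genes. The median interaction was 1.05. As with the replication genes, P1 treated replicate 2 was the lowest of its group. No marker of either list was at 0 in any library, and their part in the age differences of the replication genes was not tested.

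**Figure D2:**
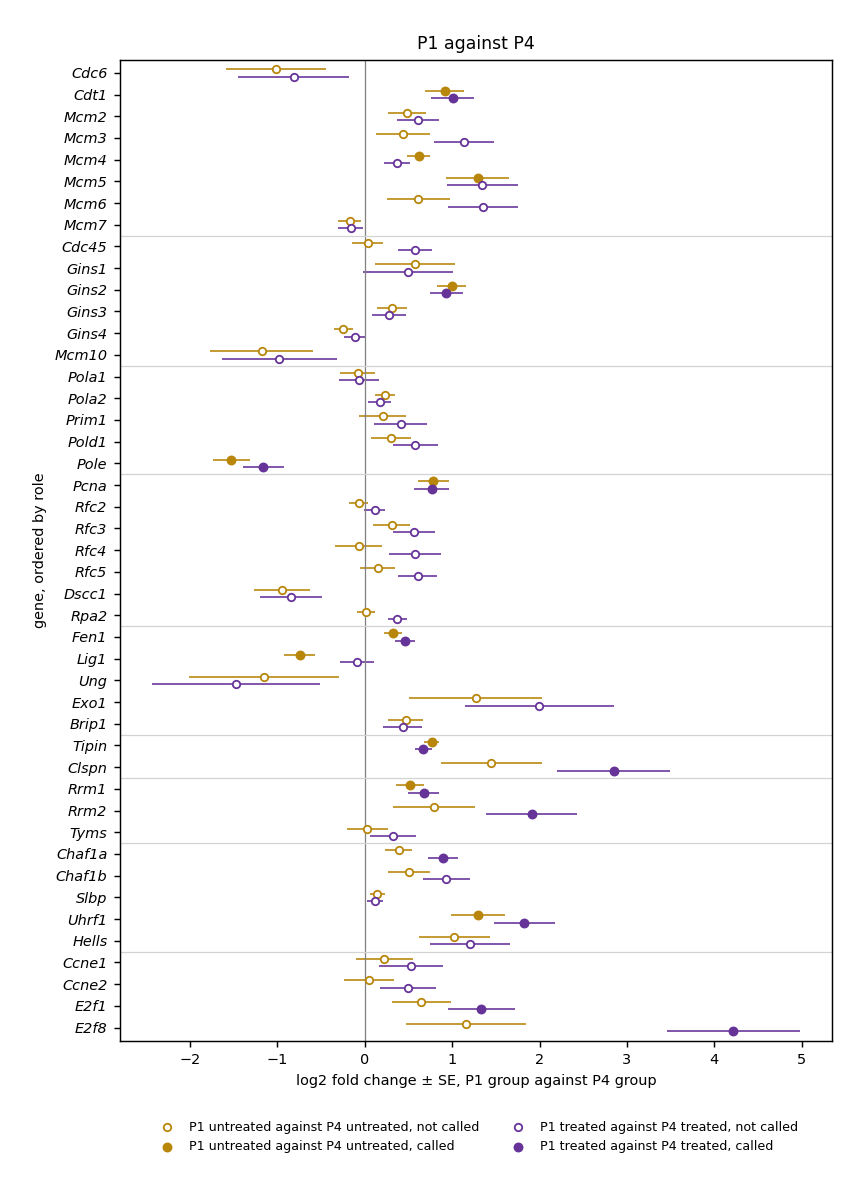
Log2 fold change of P1 against P4 (horizontal axis, with the standard error as a bar) for 45 of the 46 genes, in untreated libraries (3 against 3) and treated libraries (3 against 2). Filled points are called genes, 11 in untreated and 13 in treated libraries, and 8 genes are filled in both.

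The helicase is loaded by 8 of the genes, of which 3 were called higher at P1 in untreated and 1 in treated libraries. *Cdt1*, the licensing factor that brings the MCM ring to origins, had 196, 151 and 180 normalized counts in P1 untreated and 92, 115 and 74 in P4 untreated libraries. It had 183, 195 and 250 in P1 treated and 98 and 108 in P4 treated libraries, and no P4 library reached a P1 library in either pair. The log2 fold change was 0.91 ± 0.22 SE (adjusted p = 0.0161) in untreated and 1.00 ± 0.25 SE (adjusted p = 0.0292) in treated libraries. The first call was lost without P1 untreated replicate 1 or 3 or P4 untreated replicate 3 (adjusted p up to 0.0605), and the second without P1 treated replicate 3 or either P4 treated library (adjusted p up to 0.16).

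*Mcm5*, a subunit of the MCM ring, had 457, 492 and 444 normalized counts in P1 untreated and 249, 247 and 109 in P4 untreated libraries. P1 treated libraries had 635, 326 and 781 and P4 treated libraries 234 and 195. All P1 libraries were above all P4 libraries, although P1 treated replicate 2 was the lowest of the P1 libraries. The log2 fold change of 1.29 ± 0.36 SE in untreated libraries was called (adjusted p = 0.0296), and the similar 1.35 ± 0.40 SE in treated libraries was not (adjusted p = 0.0578). The call was lost without any of the P1 untreated libraries or without P4 untreated replicate 3, the library at 109 (adjusted p up to 0.0899).

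*Mcm4*, another subunit of the ring, had 1115, 1432 and 1254 normalized counts in P1 untreated and 846, 820 and 796 in P4 untreated libraries, a log2 fold change of 0.62 ± 0.13 SE (adjusted p = 0.00842). It had 1141, 1161 and 1375 in P1 treated and 1072 and 834 in P4 treated libraries, a log2 fold change of 0.37 ± 0.15 SE (adjusted p = 0.132). Neither pair overlapped, and P4 treated replicate 1 came close to the P1 treated libraries. The call in untreated libraries was kept in all 11 fits that left out a library. Here and below, a fit without a library outside the pair keeps the fold change and alters only the estimate of the spread.

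The other helicase loading genes were not called. *Mcm6* was at 1330, 1273 and 1427 in P1 untreated, 1363, 656 and 755 in P4 untreated, 1704, 1123 and 1848 in P1 treated and 367 and 969 in P4 treated libraries. P4 treated replicate 1 was thus far below all other libraries, and P4 untreated replicate 1 stood among the P1 libraries. *Mcm2* and *Mcm3* had log2 fold changes of 0.49 and 0.44 in untreated and 0.61 and 1.14 in treated libraries, with no overlap between P1 and P4 in either pair. *Mcm7* (-0.17 and -0.16) and *Cdc6* (-1.02 and -0.81), which loads the ring together with *Cdt1*, had values below 0. *Cdc6* was low and uneven, from 24 to 195 normalized counts.

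Although the MCM proteins stand in the ring in equal numbers, their transcripts did not. Per kilobase of exon, the P1 untreated level was 355 ± 15.7 (SD, n = 3) for *Mcm7*, 353 ± 44.3 for *Mcm4*, 288 ± 16.7 for *Mcm6*, 196 ± 18.7 for *Mcm2*, 116 ± 6.22 for *Mcm5* and 115 ± 15.4 for *Mcm3*. The first pair and the last pair in that order differed by less than their spread. At P4 the level per kilobase was 401 ± 41.7 (SD, n = 3) for *Mcm7*, 229 ± 6.97 for *Mcm4* and 50.5 ± 20.1 for *Mcm5* in untreated libraries. The length was that of all annotated exons, which can exceed that of the transcripts present.

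The helicase is activated by 6 of the genes, of which *Gins2* was called higher at P1 in both pairs and the other 5 were called in neither. *Gins2*, a subunit of the GINS complex, had 897, 814 and 830 normalized counts in P1 untreated and 381, 483 and 415 in P4 untreated libraries, a log2 fold change of 0.99 ± 0.16 SE (adjusted p = 0.00253). It had 914, 662 and 1042 in P1 treated and 452 and 444 in P4 treated libraries, a log2 fold change of 0.94 ± 0.18 SE (adjusted p = 0.0121). The lowest P1 library, at 662, was well above the highest P4 library, at 483. The call in untreated libraries was kept in all 11 fits that left out a library, and that in treated libraries was lost without either P4 treated library (adjusted p up to 0.0927). Of the exon bases of *Gins2* (chr8:120578633-120589304 in mm10), 67.3% are shared with exons of *Gse1* on the opposite strand. The library kit does not mark strand, so reads of the pair cannot be told apart there.

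*Gins4* stood at 1090, 1246 and 1220 in P1 untreated, 1365, 1422 and 1416 in P4 untreated, 1214, 924 and 1149 in P1 treated and 1138 and 1209 in P4 treated libraries. It was therefore not higher at P1, with log2 fold changes of -0.24 ± 0.11 SE (adjusted p = 0.146) and -0.11 ± 0.12 SE (adjusted p = 0.623). Per kilobase of exon it was at 879 ± 62.0 (SD, n = 3) in P1 untreated libraries, against 207 ± 10.8 for *Gins2*, 85.8 ± 5.55 for *Gins3* and 57.0 ± 15.1 for *Gins1*. *Cdc45*, the other component of the active helicase, had a log2 fold change of 0.03 in untreated and 0.58 in treated libraries, and *Mcm10*, an activator, of -1.18 and -0.98, none of them called.

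Among the 5 polymerase and primase genes, *Pole* alone was called, and it was lower at P1. *Pole*, the catalytic subunit of polymerase ε (chr5:110286306-110337474 in mm10), had 1464, 2484 and 1454 normalized counts in P1 untreated and 5018, 5042 and 4998 in P4 untreated libraries. It had 2936, 1870 and 2395 in P1 treated and 4899 and 5680 in P4 treated libraries. No P1 library exceeded 2936 and no P4 library fell below 4899. The log2 fold change was -1.53 ± 0.21 SE (adjusted p = 0.00101) in untreated and -1.16 ± 0.23 SE (adjusted p = 0.0132) in treated libraries. The first call was kept in all 11 fits that left out a library, and the second was lost without either P4 treated library (adjusted p up to 0.115).

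The neighbours of *Pole* on chromosome 5 were called in the same direction. *P2rx2*, which encodes an ATP-gated ion channel of cochlear cells, had 2967 to 3540 normalized counts in P1 untreated and 5806 to 6232 in P4 untreated libraries, a log2 fold change of -0.91 ± 0.11 SE (adjusted p = 0.00062). *Pxmp2*, a peroxisomal membrane protein gene, had 555 to 646 and 970 to 1012, a log2 fold change of -0.73 ± 0.12 SE (adjusted p = 0.00261). In treated libraries both were also called lower at P1, by log2 fold changes of -1.25 and -0.64. Both genes were chosen for their place, after the values of *Pole* were seen, and their part in the level of *Pole* was not tested. *Pola1*, *Pola2*, *Prim1* and *Pold1*, the other polymerase and primase genes, had log2 fold changes between -0.08 and 0.30 in untreated and between -0.07 and 0.58 in treated libraries, and none was called. *Pola1* lies on the X chromosome.

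Of the 7 genes of the clamp, its loaders and single-strand binding, *Pcna* was called in both pairs. *Pcna*, the sliding clamp, had 985, 1639 and 1248 normalized counts in P1 untreated and 690, 704 and 810 in P4 untreated libraries, a log2 fold change of 0.78 ± 0.18 SE (adjusted p = 0.0118). It had 1794, 1415 and 1333 in P1 treated and 849 and 916 in P4 treated libraries, a log2 fold change of 0.77 ± 0.20 SE (adjusted p = 0.0345). Both pairs were separate, and P1 untreated replicate 1 was the P1 library nearest to the P4 libraries. The call in untreated libraries was kept in all 11 fits that left out a library. That in treated libraries was lost without P1 treated replicate 1 or 2 or either P4 treated library (adjusted p up to 0.181).

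The clamp loader genes *Rfc2* to *Rfc5* were not called, with log2 fold changes of -0.07 to 0.31 in untreated and 0.11 to 0.60 in treated libraries. *Rpa2*, a subunit of the single-strand binding protein RPA, had 0.02 ± 0.10 SE and 0.37 ± 0.11 SE (adjusted p = 0.0599). *Dscc1*, part of an alternative clamp loader, was at 90, 90 and 129 in P1 untreated and 150, 296 and 170 in P4 untreated libraries, a log2 fold change of -0.94 ± 0.32 SE that just missed the threshold (adjusted p = 0.061).

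The 6 flap, ligation and repair genes went different ways. *Fen1*, the flap endonuclease, had 751, 724 and 790 normalized counts in P1 untreated and 562, 618 and 632 in P4 untreated libraries, a log2 fold change of 0.32 ± 0.10 SE (adjusted p = 0.0485). It had 827, 837 and 962 in P1 treated and 641 and 630 in P4 treated libraries, a log2 fold change of 0.46 ± 0.12 SE (adjusted p = 0.0307). The groups were separate, but the change in untreated libraries lay at the edge of both thresholds, passed in 2 of the 11 fits that left out a library, those without P1 treated replicate 2 or 3 (adjusted p from 0.0434 to 0.144 over the 11), and had an adjusted p of 0.0698 with the replicate number as a block. That in treated libraries was lost without P1 treated replicate 3 or either P4 treated library (adjusted p up to 0.173). Of the exon bases of *Fen1*, 78.8% are shared with the antisense gene *Gm10143*.

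*Lig1*, the ligase that seals the joined fragments, was lower at P1 in untreated libraries, with 463, 426 and 501 normalized counts against 863, 724 and 745 (log2 fold change -0.74 ± 0.18 SE, adjusted p = 0.0145). Without P4 untreated replicate 1 the adjusted p was 0.0528. P1 treated libraries had 687, 555 and 941 and P4 treated libraries 718 and 794, which overlapped (log2 fold change -0.09 ± 0.20 SE, adjusted p = 0.817). The difference between those age effects was not called (interaction 0.66 ± 0.27 SE, adjusted p = 0.82).

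*Ung*, which removes uracil from DNA, was at 25 to 58 normalized counts in 9 of the libraries, at 275 in P4 treated replicate 1 and at 333 in P4 untreated replicate 1. *Exo1*, an exonuclease, had the lowest level per kilobase of the 46 genes in P1 untreated libraries and ran from 2 to 115 normalized counts. Neither gene was called.

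Both fork protection and checkpoint genes were higher at P1 in treated libraries, and *Tipin* in untreated libraries as well. *Tipin*, which holds the helicase and polymerase together with its partner Timeless, had 1877, 1948 and 2085 normalized counts in P1 untreated and 1229, 1211 and 1043 in P4 untreated libraries. It had 1845, 1782 and 1751 in P1 treated and 1129 and 1127 in P4 treated libraries. The lowest P1 library was at 1751 and the highest P4 library at 1229. The log2 fold change was 0.76 ± 0.087 SE (adjusted p = 0.000402) in untreated and 0.67 ± 0.098 SE (adjusted p = 0.00382) in treated libraries. Of the 46 genes, *Tipin* had the lowest adjusted p in both age comparisons, and it was the only member whose calls in both were kept in all 11 fits that left out a library. It also had the highest level per kilobase of exon in P1 untreated libraries, 1054 ± 56.6 (SD, n = 3).

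*Clspn*, which passes the replication stress signal to CHK1, had 56, 44 and 134 normalized counts in P1 treated and 18 and 4 in P4 treated libraries, a log2 fold change of 2.85 ± 0.65 SE (adjusted p = 0.0215). It had 33, 24 and 60 in P1 untreated and 13, 13 and 12 in P4 untreated libraries, a log2 fold change of 1.45 ± 0.58 SE (adjusted p = 0.102). Both pairs were separate, at low counts. The call was lost without replicate 3 of P1 treated or of P4 treated, the libraries at 134 and 4 (adjusted p up to 0.188). With replicate 1 as the only P4 treated library the log2 fold change was 1.89, and with replicate 3 alone it was 3.81.

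**Figure D3:**
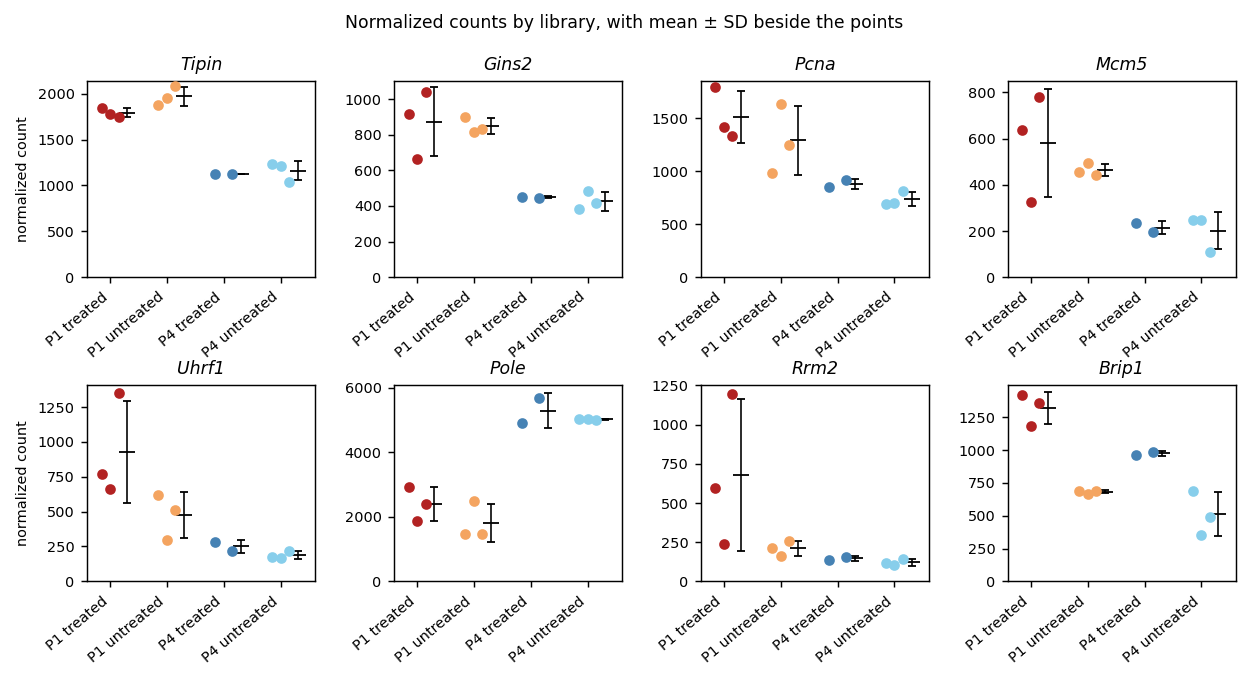
Normalized counts (vertical axes, from 0) of 8 of the genes in each library, 1 point per library in its group, with a bar for the mean ± SD of the group beside the points. Tipin, Gins2, Pcna, Mcm5 and Uhrf1 are higher in both P1 groups, Pole is higher in both P4 groups, Rrm2 is high in 2 of the P1 treated libraries, and Brip1 is higher in treated libraries at both ages.

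Nucleotides are supplied by 3 of the genes. *Rrm1*, the large subunit of ribonucleotide reductase, had 1583, 1487 and 1559 normalized counts in P1 untreated and 1110, 1011 and 1106 in P4 untreated libraries, a log2 fold change of 0.52 ± 0.16 SE (adjusted p = 0.0411). It had 1758, 1318 and 2238 in P1 treated and 1136 and 1031 in P4 treated libraries, a log2 fold change of 0.68 ± 0.18 SE (adjusted p = 0.0355). All P1 libraries were above all P4 libraries. The call in untreated libraries passed in 2 of the 11 fits that left out a library, those without P1 treated replicate 2 or 3 (adjusted p up to 0.105). The call in treated libraries passed in 4, those without P1 treated replicate 2, P1 untreated replicate 2, or P4 untreated replicate 1 or 2 (adjusted p up to 0.212).

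*Rrm2*, the small subunit, whose level limits the enzyme in S phase, had 598, 236 and 1197 normalized counts in P1 treated and 136 and 158 in P4 treated libraries, a log2 fold change of 1.91 ± 0.52 SE (adjusted p = 0.0414). It had 211, 165 and 258 in P1 untreated and 117, 102 and 144 in P4 untreated libraries, a log2 fold change of 0.79 ± 0.47 SE (adjusted p = 0.255). P1 treated replicate 2, at 236, lay within the range of P1 untreated libraries, and the others were far above it. The call passed in 1 of the 11 fits, the one without P1 treated replicate 2, where the log2 fold change was 2.52 (adjusted p from 0.00494 to 0.192 over the 11). *Tyms*, which makes thymidylate, was not called (0.03 and 0.33).

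Of the 5 chromatin and histone supply genes, *Uhrf1* was called in both pairs and *Chaf1a* in treated libraries. *Uhrf1*, which brings the maintenance DNA methyltransferase to newly copied DNA, had 617, 298 and 512 normalized counts in P1 untreated and 173, 166 and 219 in P4 untreated libraries, a log2 fold change of 1.30 ± 0.31 SE (adjusted p = 0.0153). It had 773, 665 and 1347 in P1 treated and 285 and 218 in P4 treated libraries, a log2 fold change of 1.82 ± 0.35 SE (adjusted p = 0.0106). P1 untreated replicate 2, at 298, was the P1 library nearest to the highest P4 library, at 285. The first call was lost without P1 untreated replicate 1 or 3 (adjusted p up to 0.0577) and the second without either P4 treated library (adjusted p up to 0.102).

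*Chaf1a*, the large subunit of the chaperone that places histones behind the fork, had 383, 413 and 465 normalized counts in P1 treated and 206 and 245 in P4 treated libraries, a log2 fold change of 0.90 ± 0.17 SE (adjusted p = 0.0114). It had 309, 345 and 308 in P1 untreated and 266, 209 and 263 in P4 untreated libraries, a log2 fold change of 0.39 ± 0.16 SE (adjusted p = 0.103). The groups were separate in both pairs, and the call was lost without either P4 treated library (adjusted p up to 0.0987). *Ubxn6*, on the opposite strand, shares 52.5% of the exon bases of *Chaf1a*. *Chaf1b*, its partner, had log2 fold changes of 0.51 and 0.93 (adjusted p = 0.051 in treated libraries), and *Hells*, a chromatin remodeler, of 1.03 and 1.20. *Slbp*, which binds histone mRNA, was among the steadiest, with 2933 to 3736 normalized counts over all libraries and log2 fold changes of 0.15 and 0.12.

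The 4 cyclin and E2F genes were called only in treated libraries, and only the E2F genes. *E2f8*, an atypical E2F that represses E2F targets late in S phase, had 47, 52 and 104 normalized counts in P1 treated and 1 and 5 in P4 treated libraries, a log2 fold change of 4.22 ± 0.76 SE (adjusted p = 0.00888). It had 22, 28 and 32 in P1 untreated and 32, 4 and 11 in P4 untreated libraries, a log2 fold change of 1.16 ± 0.68 SE (adjusted p = 0.254). The P4 untreated libraries overlapped the P1 untreated ones through replicate 1 alone. At counts of 1 to 5 the size of the fold change depends on the pseudocount, and with a pseudocount of 5 in place of 1 it was 3.15 on the log2 scale. Without P4 treated replicate 1 it was 3.42 and the call was lost (adjusted p = 0.0799), and without P4 treated replicate 3 it was 5.01.

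*E2f1*, an activating E2F, had 201, 143 and 343 normalized counts in P1 treated and 113 and 63 in P4 treated libraries, a log2 fold change of 1.34 ± 0.38 SE (adjusted p = 0.0474). It had 187, 183 and 292 in P1 untreated and 137, 144 and 131 in P4 untreated libraries, a log2 fold change of 0.65 ± 0.34 SE (adjusted p = 0.201). P1 libraries were above P4 libraries in each pair. The call passed in 1 of the 11 fits, again the one without P1 treated replicate 2 (adjusted p from 0.0248 to 0.327 over the 11). *Ccne1* and *Ccne2*, the cyclins of the entry into S phase, had log2 fold changes of 0.22 and 0.05 in untreated and 0.53 and 0.50 in treated libraries, and neither was called.

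The question of the treated groups was how the tissue answered stabilized β-catenin at each age. Treated pups alone carried Sox2-CreER, so stabilized β-catenin cannot be told apart from Cre or from the lower *Sox2* level. The paper names the reduced *Sox2* level of this allele as a limitation. Treated against untreated, 0 of the 46 genes were called by limma at P1, where 0.261% of all genes were called higher and 0.0924% lower. At P4, 0 were called as well, where 0.0326% of all genes were called higher and 0.0217% lower. The paper, with another test, reported more genes that differed after treatment, at both ages, than limma called here. It also reported genes with a combined effect of treatment and age, for which limma called no gene. The lack of limma calls among the replication genes is therefore not evidence that they did not respond. Without adjustment, at p under 0.05, 9 of the 46 genes (19.6%) were higher in P1 treated libraries, against 5.18% of all genes, and 0 were lower, against 6.99%. At P4 1 was higher (2.17%, against 6.26% of all genes) and 1 lower (2.17%, against 5.38%), both below the share of all genes. The groups did not overlap at P1 for 9 genes that were higher (19.6%, against 6.95% of all genes) and 1 that was lower (2.17%, against 8.33%). At P4 these were 3 (6.52%, against 16.6%) and 4 (8.7%, against 16.9%).

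At P1, 37 of the 46 genes had a positive log2 fold change (80.4%, against 50.8% of all genes), with a median of 0.25. Sex was not balanced there, with *Xist* high in P1 untreated replicates 2 and 3 and low in all P1 treated libraries. Without P1 treated replicate 3 the median was 0.055, and without P1 treated replicate 2 it was 0.41. By role, the P1 median was highest for flap, ligation and repair genes (0.50, 6 of 6 positive) and lowest for helicase activation genes (-0.02, 3 of 6 positive). At P4, where treatment and sex went together, 24 of the 46 were positive and the median was 0.01. The interaction of treatment and age had a median of 0.21, with 36 of 46 positive, against 48.9% of all genes. By limma, 0 of the 46 and 0% of all genes were called for it, and at an unadjusted p under 0.05 3 of the 46 were higher (6.52%, against 2.72% of all genes) and 0 lower (against 3.08%). The interaction includes the P4 groups, so sex cannot be told apart from it either.

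**Figure D4:**
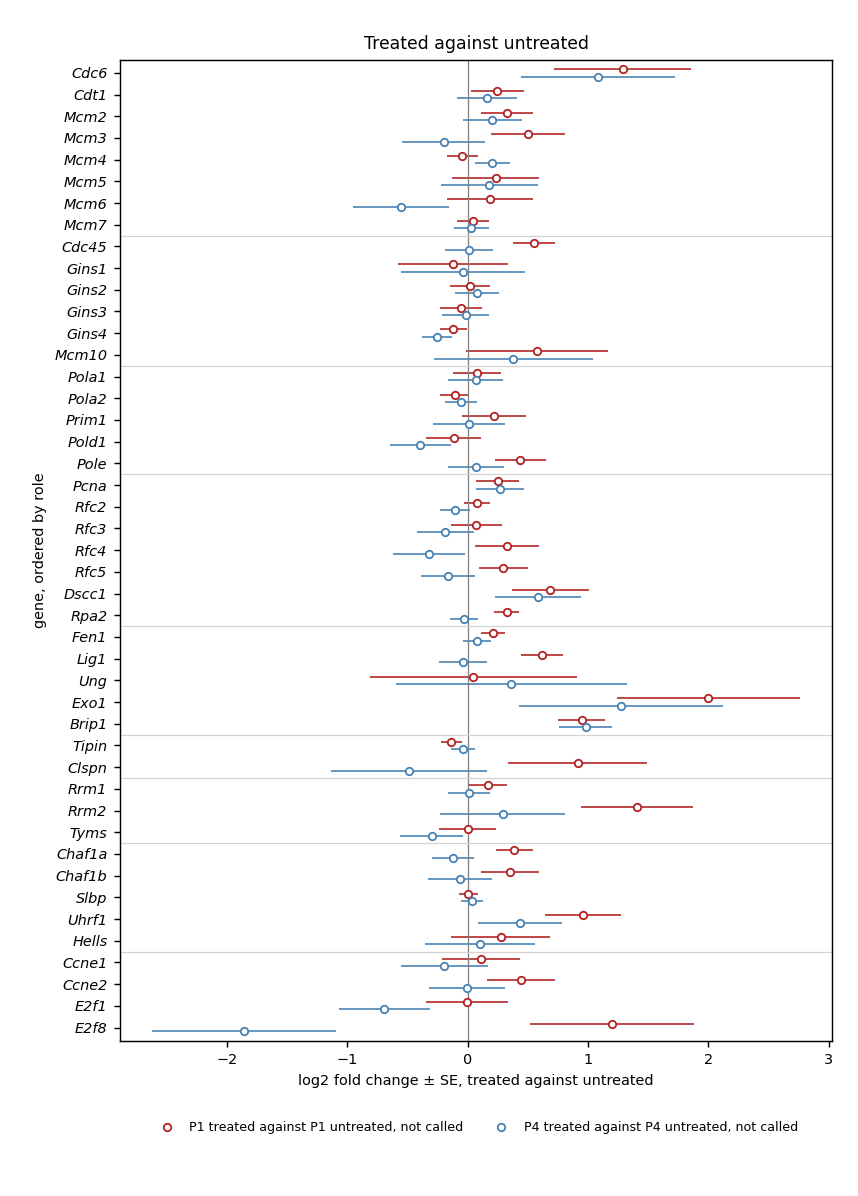
Log2 fold change of treated against untreated (horizontal axis, with the standard error as a bar) for 45 of the 46 genes at P1 (3 against 3 libraries) and at P4 (2 against 3). All points are open because no gene was called in either, and 36 of the 45 lie above 0 at P1 and 23 at P4.

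*Brip1*, a helicase that works with BRCA1 in the repair of stalled forks, had the lowest p of the 46 genes in both treatment comparisons. It had 1418, 1187 and 1356 normalized counts in P1 treated and 688, 669 and 692 in P1 untreated libraries. This was a log2 fold change of 0.95 ± 0.20 SE (adjusted p = 0.0938 with limma). At P4 it had 962 and 989 in treated and 690, 357 and 489 in untreated libraries, a log2 fold change of 0.98 ± 0.22 SE (adjusted p = 0.223). All 5 treated libraries were above all 6 untreated libraries. The P1 comparison would have been called without P4 untreated replicate 1 or 2 (adjusted p = 0.036 and 0.0295). Those libraries are outside the comparison and enter only the estimate of the spread. In the other 9 of the 11 fits that left out a library it was not called (adjusted p up to 0.293).

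The treatment effect averaged over both ages was added after these values were seen. In it *Brip1* was the only one of the 46 genes called (log2 fold change 0.96 ± 0.15 SE, adjusted p = 0.0212), where 0.424% of all genes were called higher and 0.25% lower. The call was lost without P1 untreated replicate 3 (adjusted p = 0.0635), P4 treated replicate 1 (0.0809) or P4 treated replicate 3 (0.0923). The age effect of *Brip1* was not called, with log2 fold changes of 0.47 ± 0.20 SE in untreated and 0.43 ± 0.22 SE in treated libraries.

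Next to *Brip1* at P1 stood *Lig1*, with 687, 555 and 941 normalized counts in treated and 463, 426 and 501 in untreated libraries (log2 fold change 0.62 ± 0.18 SE, adjusted p = 0.192). *Rpa2* had 1277, 1251 and 1172 against 886, 1016 and 1060 (0.32 ± 0.10 SE, adjusted p = 0.231). Neither gene overlapped between the groups at P1, and at P4 both did: *Rpa2* had 1006 and 898 in treated and 988, 1024 and 907 in untreated libraries. The others at an unadjusted p under 0.05 at P1 were *Cdc6*, *Cdc45*, *Exo1*, *Rrm2*, *Chaf1a* and *Uhrf1*, with log2 fold changes of 0.39 to 2.00 and adjusted p of 0.241 to 0.402. *Rrm2* was called at P1 without P1 treated replicate 2 (log2 fold change 2.02, adjusted p = 0.0495).

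At P4, *E2f8* (-1.86 ± 0.76 SE, adjusted p = 0.39) and *Gins4* (-0.26 ± 0.12 SE, adjusted p = 0.464) followed *Brip1* in order of p. *E2f8* had the lowest p for the interaction, 3.06 ± 1.02 SE (adjusted p = 0.82), followed by *Lig1* and *Rpa2* (0.36 ± 0.15 SE, adjusted p = 0.839). *E2f8* was higher in all P1 treated than in all P1 untreated libraries, while at P4 the treated values of 1 and 5 overlapped the untreated values of 32, 4 and 11.

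Markers of several cell types differed between the P1 groups. Of the 14 supporting cell markers, 3 (21.4%, against 0.261% of all genes) were called higher in P1 treated libraries. These were *Lgr5* (1.86), *Gjb2* (0.88) and *Gjb6* (0.65). *Sox2* was called lower (7.14%, against 0.0924% of all genes), and at P4 0 of the 14 were called. The 12 immune markers had a mean log2 level of 7.80, 6.56 and 6.77 in P1 treated replicates 1, 2 and 3 and of 7.98 to 8.32 in P1 untreated libraries. With 0 of the 12 called, 10 (83.3%, against 6.99% of all genes) were lower at an unadjusted p under 0.05. No immune marker was at 0 in any library. The 12 mesenchyme markers were at 10.7 to 12 and 11.6 to 12. Of these, 5 (41.7%, against 6.99% of all genes) were lower at an unadjusted p under 0.05 and 1 (8.33%, against 0.261%) was called higher. The 9 stria and melanocyte markers stood at 9.97 in 1 of the P1 treated libraries, replicate 2, and at 7.04 to 8.59 in all others. Their part in the levels of the replication genes was not tested.

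Other genes of the same machinery and of the next cell cycle phase were counted from lists. Of 65 other replication and S phase genes, 9 were called higher (13.8%) and 1 lower (1.54%) at P1 in untreated libraries, and 6 higher (9.23%) and 2 lower (3.08%) in treated libraries. Of all genes 10.5% and 9.38% were called higher and lower in the first pair, and 5.63% and 5.42% in the second, so the share called higher in untreated libraries was near that of all genes. The median log2 fold change was 0.12 and 0.17. *Orc6*, of the origin recognition complex, was called in both pairs (0.56 and 0.54), as were *Pold2*, a subunit of polymerase δ (0.47 and 0.70), and *Wdhd1*, which ties the helicase to polymerase α (1.02 and 1.34). *Timeless*, the partner of *Tipin*, was called in untreated libraries (0.57 ± 0.18 SE, adjusted p = 0.0416), where *Cdk2*, the kinase that cyclin E activates, was called too (0.58). The mismatch repair gene *Msh6* was lower at P1 in both pairs (-0.66 and -0.56). In treated against untreated libraries, 0 of the 65 were called at either age. At an unadjusted p under 0.05, 9 (13.8%, against 5.18% of all genes) were higher at P1 and 2 (3.08%, against 6.99%) lower. At P4, 5 (7.69%, against 6.26%) were higher, near the share of all genes, and 2 (3.08%, against 5.38%) lower.

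Of 20 mitosis genes, 2 (10%) were called higher at P1 in untreated libraries, no more than the 10.5% of all genes, namely the B cyclins *Ccnb1* (2.30) and *Ccnb2* (2.36). In treated libraries 9 (45%, against 5.63%) were called higher, among them *Ccnb1* (3.48), *Cdc20* (1.70) and *Cdk1* (3.25). None was called lower, and the median log2 fold change was 1.02 in untreated and 1.91 in treated libraries, against 0.32 and 0.57 for the 46 S phase genes. The mean log2 level of the mitosis list was 7.87, 6.57 and 8.88 in P1 treated replicates 1, 2 and 3 and 6.70 to 7.35 in P1 untreated libraries. It was 5.82 and 5.97 in P4 treated and 5.78 to 6.13 in P4 untreated libraries. As for the S phase genes, replicate 3 was the highest and replicate 2 the lowest of the P1 treated libraries, and the P1 libraries stood above the P4 libraries. Of 9 cell cycle inhibitor genes, 3 (33.3%, against 9.38% of all genes) were called lower at P1 in untreated libraries, namely *Cdkn1a* (-1.83), *Cdkn2d* (-0.50) and *Cdkn1b* (-0.64). There *Cdkn1c* (1.66) was called higher (11.1%, against 10.5%). In treated libraries *Cdkn1b* (-0.62) and *Cdkn2d* (-0.39) were called lower (22.2%, against 5.42%) and *Rbl1* (0.74) higher (11.1%, against 5.63%). At P1, 0 of the 20 mitosis genes were called by limma between treated and untreated libraries. At an unadjusted p under 0.05, 3 (15%, against 5.18% of all genes) were higher.

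**Figure D5:**
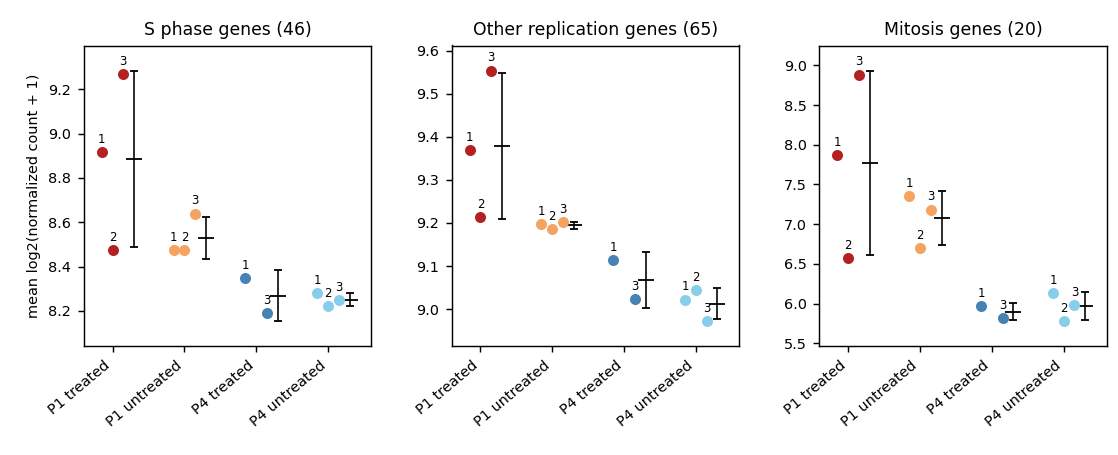
Mean log2(normalized count + 1) of 3 gene lists in each library (vertical axes do not start at 0 and differ between panels), with replicate numbers beside the points and a bar for the mean ± SD of the group. P1 libraries stand above P4 libraries in all 3 lists, and P1 treated replicate 3 is the highest library in each, at 9.27 for the 46 S phase genes and 8.88 for the mitosis genes.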

How the data were processed

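Both cochleae of single pups were dissected and freed of other tissue with Cell Recovery Solution, and cDNA from 2.5 ng of RNA was made with the SMARTer V4 kit and sequenced. Per the labels, reads were processed with STAR 2.5.2b, featureCounts and DESeq2 on mm10. By the study's methods, featureCounts served for quality checks, and genes were quantified with Sailfish and tximport. The table itself names no tool. The deposited values are a score per gene, namely counts normalized by the authors and rounded, so tests for raw counts were not used.

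Tests were run with limma 3.58.1 (R 4.3.3) on log2(normalized count + 1), with group means, all 11 libraries and eBayes with trend, over 18400 genes with a mean of at least 10, with Benjamini-Hochberg adjustment. Treated pups were set against untreated pups within P1 and within P4, P1 against P4 within each genotype, and the interaction was taken. Adjusted p-values and standard errors are from these fits. The method was run on simulated data, and the share of small changes that it recovered there is not given here. Of the 46 genes, 1 that was not called enters the counts and medians but is not reported here by name or drawn on its own. The genes described and the lists were chosen with earlier results of these data known. Genes called in any comparison, and the 3 with the lowest p in each treatment comparison and the interaction, are given with every library's value; other lists name up to 5 called genes per comparison. Gene positions and exon overlaps are from GENCODE M21, and promoter sequences from RefSeq. Residuals of same-numbered libraries correlated at 0.115 to 0.136 between P1 and P4 untreated libraries, which was taken as pairing, and at -0.061 to 0.026 in the other comparisons.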

Additional observations from a re-analysis of the deposited data

How the results depend on the processing

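Alternatives were another pseudocount (5), no minimum or a mean of at least 50, eBayes without trend, median-of-ratios scaling, quantile normalization, *Xist* as a covariate, the replicate number as a block, only the groups compared, an adjusted p under 0.1, and leaving out each library in turn. Followed under these were 36 log2 fold changes, namely those called and the 3 with the lowest p in each treatment comparison, the interaction and the treatment effect over both ages. They kept their direction and side of the threshold in 610 cases, lost a call in 132, gained one in 3 (all *Brip1* at P1) and reversed in 0. The 610 include values called in neither fit. Several alternatives leave the fold change itself unchanged, so no direction could reverse in them. These are the other minimum means, no trend, only the groups compared, the adjusted p under 0.1, and leaving out a library outside the comparison. The looser adjusted p could not lose a call either. Over all 46 genes, alternatives made 31 calls that the reported fit did not, in 16 pairs of gene and comparison, 9 of them without P1 treated replicate 2 and 8 at an adjusted p under 0.1. Calls of the S phase genes at P1 against P4 in untreated libraries numbered 11, 4 with the *Xist* covariate and 6 to 13 with a library left out. In treated libraries they numbered 13, 0 with the *Xist* covariate, 4 with only the groups compared (*Tipin*, *Uhrf1*, *Pole*, *E2f8*) and 2 to 18 with a library left out, lowest without P4 treated replicate 1 (2) or 3 (3). For treatment at P1 the count was 0, 1 at an adjusted p under 0.1 (*Brip1*) and 0 to 1 with a library left out. For treatment over both ages it was 1, 0 without trend and 0 to 1 with a library left out. The median interaction was 0.21, 0.61 with the *Xist* covariate and 0.063 to 0.43 with a library left out. The cause of these shifts was not tested, apart from the fewer libraries. With the replicate block, 10 genes were called between untreated libraries, *Fen1* being lost, and no other call in that comparison changed. Between treated libraries 9 were called with the block, with *Cdt1*, *Pcna*, *Fen1* and *E2f1* lost. Shares of all genes called under the alternatives are not given here, so these counts do not compare the 46 genes with all genes. Treated libraries at P4 numbered 2, so a fit without either rests on the spread of the other groups, and low counts limit *E2f8*, *Clspn*, *Exo1* and *Cdc6*.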
